A study of Mus musculus with 9 samples.

Results

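Among the T-cell receptor (TCR) chains sequenced from single lymph node cells, 1106 cell barcodes carried exactly 2 productive beta chains (TRB) of different junction sequence. They were chosen by that count alone, from 8 libraries. They made up 4.04% of the 27381 barcodes with any productive TRB chain, the other 26275 carrying 1 TRB chain. The 8 libraries held 29717 barcodes with any productive chain, and all 9 tables of the study 36630. These barcodes are called 2-TRB barcodes below, and the rest with a TRB chain 1-TRB barcodes. A productive chain is one whose reading frame is open, and the junction is the stretch between V and J segments, ends included, that makes each chain distinct.

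The mice were females 10 to 11 months old, either wild-type (WT) or 5xFAD. Cells came from 3 lymph node types, namely the deep cervical nodes (dCLN), the superficial cervical nodes (sCLN) and the inguinal nodes (iLN). The 5xFAD line carries transgenes with familial Alzheimer's disease mutations that are expressed in neurons. Each node and genotype gave 1 library, which made 6 main libraries. One more dCLN library, labelled WT, had CD4 in its title (CD4-titled below), and 1 library was labelled as a mixture of the 3 node types and both genotypes (mixed). The labels name immune cells as the cell type, and they give neither a strain nor the number of animals behind a library. Suspensions from several hashtagged tubes were pooled, per the labels' protocols, and the tables do not give the tube of a cell.

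A developing T cell assembles its TRB gene first, on 1 of its chromosomes, and a productive chain stops further TRB assembly, a control called allelic exclusion. The alpha gene (TRA) has a looser control, so that part of the T cells carry a pair of productive TRA chains. A barcode with 2 productive TRB chains can come from 1 T cell in which both TRB alleles are productive, or from 2 cells caught in the same droplet. The tables do not say which holds for a given barcode, and this was not tested.

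The 9 tables held 3458 to 13137 contigs and 28460 to 87917 unique molecular identifiers (UMIs, the count of captured RNA molecules) each. The CD4-titled library labelled WT and its counterpart labelled 5xFAD shared 6825 barcodes, out of 6901 and 6913, and thus hold the same cells. TRA chains of the mixed library matched the reference genome more often than those of any main library, as given further on. Whether the label of the mixed library is wrong cannot be told from this match. The 5xFAD-labelled CD4 table was left out of the 8 libraries and is used only as a repeat measurement, and the genotype of the CD4-titled library is taken from no label here. Any other 2 of the 8 libraries shared 3 to 46 barcodes, with 0 combinations of barcode and junction in common. Of the 2-TRB barcodes, 32 had a barcode that also occurred in another library. No table listed more than 2 TRB or 2 TRA contigs for a barcode, so barcodes with 3 or more TRB chains numbered 0 in every library.

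The TRB pairs found in more than 1 barcode of a library are shown first, because they are pairs seen again under another barcode. Whether such barcodes came from different droplets is not given. Junctions are written 5′ to 3′ from the first to the last base, with the bases between the V and J segments (added bases and the D segment) in capitals. The dCLN WT pair, in 3 barcodes, was the only one seen more than 2 times.
dCLN WT, TRBV1 with TRBJ1-1: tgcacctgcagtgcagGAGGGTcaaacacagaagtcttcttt
dCLN WT, TRBV5 with TRBJ2-4: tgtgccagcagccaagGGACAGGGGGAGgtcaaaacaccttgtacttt
CD4-titled, TRBV15 with TRBJ1-3: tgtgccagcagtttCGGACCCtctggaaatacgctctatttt
CD4-titled, TRBV17 with TRBJ2-5: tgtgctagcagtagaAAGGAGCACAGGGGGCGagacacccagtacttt
CD4-titled, TRA chain of the same barcodes, TRAV8N-2 with TRAJ33: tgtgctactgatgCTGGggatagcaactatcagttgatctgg
sCLN 5xFAD, TRBV13-1 with TRBJ2-1: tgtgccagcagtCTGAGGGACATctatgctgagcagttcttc
sCLN 5xFAD, TRBV29 with TRBJ2-5: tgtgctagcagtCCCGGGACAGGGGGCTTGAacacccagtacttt
sCLN 5xFAD, TRA chain of 1 barcode, TRAV6-3 with TRAJ17: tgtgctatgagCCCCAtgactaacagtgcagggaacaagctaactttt
sCLN 5xFAD, TRA chain of the other barcode, TRAV6D-4 with TRAJ23: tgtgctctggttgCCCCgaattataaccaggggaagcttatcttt
dCLN 5xFAD, TRBV13-1 with TRBJ1-2: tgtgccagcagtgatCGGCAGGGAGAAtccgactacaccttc
dCLN 5xFAD, TRBV13-2 with TRBJ2-2: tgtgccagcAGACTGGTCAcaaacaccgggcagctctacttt
dCLN 5xFAD, TRA chain of the same barcodes, TRAV7-5 with TRAJ34: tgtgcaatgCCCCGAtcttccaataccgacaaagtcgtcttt

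In the dCLN WT pair the TRBV1 chain had 2, 8 and 2 UMIs in the 3 barcodes and the TRBV5 chain 6, 4 and 8, so the larger chain was not the same in all of them. These 3 barcodes held 3 different TRA chains, of which TRAV6D-7 with TRAJ49 and TRAV7D-5 with TRAJ2 were each in 2 barcodes and none in all 3. In the CD4-titled pair the TRBV15 chain had 16 and 23 UMIs and the TRBV17 chain 8 and 16, and both barcodes held the TRAV8N-2 chain, with 4 and 13 UMIs. The sCLN 5xFAD pair had 4 and 10 UMIs of TRBV13-1 and 13 and 21 of TRBV29, and its barcodes shared no TRA chain. In the dCLN 5xFAD pair the TRBV13-1 chain had 2 and 9 UMIs and the TRBV13-2 chain 24 and 5, and the order of the chains thus changed between barcodes.

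In all, 12 TRB pairs were found in more than 1 barcode of a library, 11 of them in 2 barcodes and 1 in 3. They took in 25 of the 1106 barcodes (2.26%) and came from 5 libraries, with 0 such pairs in sCLN WT, iLN WT and the mixed library. A single TRA chain was common to all barcodes of 10 of the 12 pairs. Barcodes of a recurring pair differed from each other at 7 or more of their bases. In 2 of the 12 pairs, 1 of the chains also stood alone in a 1-TRB barcode of the library.

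The chains of 2-TRB barcodes were also looked up in the 1-TRB barcodes of their library. The larger chain, by UMIs, was there in 41 of 1106 barcodes (3.71%) and the smaller chain in 33 (2.98%). By library, 2.61% to 13.7% of the 1-TRB barcodes with TRA shared their TRB chain with another such barcode of the library. That range leaves out barcodes without TRA, which the 41 and 33, pooled over libraries, take in. With TRA on both sides the counts were 29 for the larger chain and 26 for the smaller. Where both sides had a TRA chain, the larger chain was found with a TRA chain it also had in the 2-TRB barcode in 22 of 29 cases, and the smaller chain in 18 of 26.

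The share of 2-TRB barcodes differed between libraries by more than their counting error. In the WT nodes it was 3.13% of TRB barcodes in dCLN (exact Clopper-Pearson 95% interval 2.42 to 3.97, 65 barcodes), 1.66% in sCLN (1.14 to 2.33, 32 barcodes) and 2.33% in iLN (1.77 to 3.00, 58 barcodes). In the 5xFAD nodes it was 4.43% in dCLN (3.85 to 5.07, 202 barcodes), 4.30% in sCLN (3.64 to 5.04, 145 barcodes) and 1.76% in iLN (1.28 to 2.36, 43 barcodes). The CD4-titled library had 5.05% (4.54 to 5.61, 335 barcodes) and the mixed library 5.83% (5.11 to 6.62, 226 barcodes). Sorted from low to high, sCLN WT, iLN 5xFAD and iLN WT had overlapping intervals, as had dCLN 5xFAD, sCLN 5xFAD and the CD4-titled library. The interval of dCLN WT overlapped those of iLN WT, sCLN 5xFAD and dCLN 5xFAD, and that of the mixed library overlapped the CD4-titled one. All intervals cover counting error only.

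The number of barcodes in a library moved with this share. The 4 libraries with 2201 to 2772 barcodes had 1.66% to 3.13%, and the 4 libraries with 3708 to 6901 barcodes had 4.30% to 5.83%. The mixed library, with 4052 barcodes, stood above the CD4-titled library, with 6901. How many cells were loaded for each library is not given in the sources used here, and the part of library size in these shares was not tested.

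**Figure D1:**
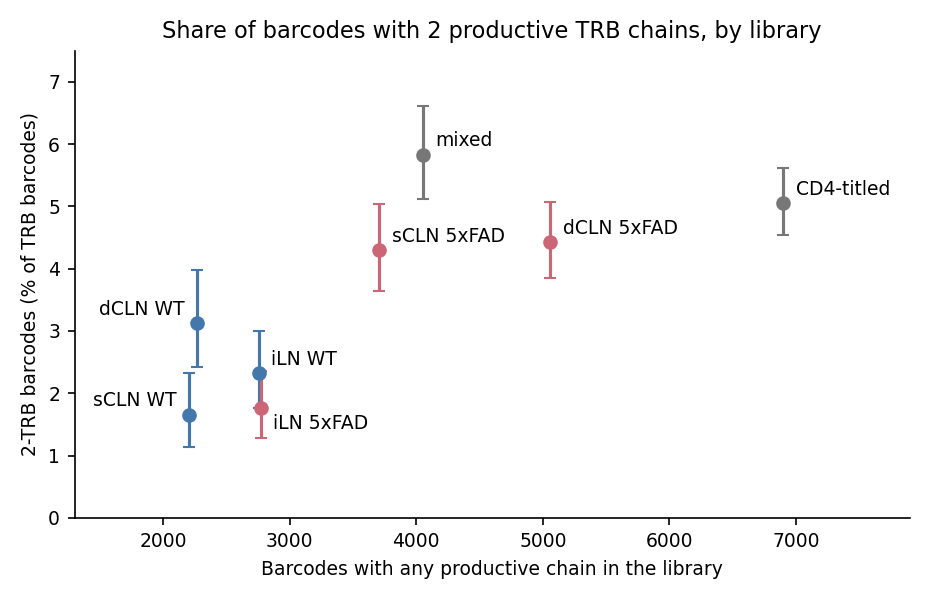
Share of TRB barcodes with 2 productive TRB chains (vertical axis, percent) against the number of barcodes with any productive chain (horizontal axis), 1 point per library with its exact 95% counting interval, WT nodes in blue, 5xFAD nodes in red and the CD4-titled and mixed libraries in grey. The 4 libraries of 2201 to 2772 barcodes lie at or below 3.13% and the other 4 at or above 4.30%.

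Between genotypes the share averaged 2.37% ± 0.74 (SD, n = 3 nodes) in WT and 3.50% ± 1.5 (SD, n = 3) in 5xFAD. The difference was +1.3 points in dCLN, +2.64 in sCLN and -0.57 in iLN, with a mean of 1.12 ± 1.61, and the exact two-sided sign-flip permutation test over the 3 nodes gave p = 0.50 (adjusted p = 1 over 3 genotype tests). With 3 nodes this test cannot go below 0.25. The sign in iLN depended on the barcodes counted, as 30.7% of 1-TRB barcodes in iLN WT and 52.0% in iLN 5xFAD had no TRA chain. Among TRB barcodes with a TRA chain the share in WT and 5xFAD was 5.03% and 6.86% in dCLN. It was 2.77% and 5.87% in sCLN and 3.32% and 3.60% in iLN, higher in 5xFAD in every node. The iLN values rest on 58 of 1746 and 43 of 1194 barcodes, and no counting interval was computed for these shares. In dCLN and sCLN the library with the higher share was also the one with more barcodes, 5059 against 2269 and 3708 against 2201, whereas the iLN libraries held 2772 and 2755. The part of genotype and that of library size cannot be told apart in the cervical nodes.

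The tables set a limit on what TRA chains can show. No table listed a barcode with 2 TRB contigs and no TRA contig, or with 2 TRA contigs and no TRB contig, while 21.3% to 52.0% of 1-TRB barcodes in each library had no productive TRA chain. The presence of a TRA chain in 2-TRB barcodes is therefore a property of the tables. The 3 exceptions, 2 in the CD4-titled library and 1 in the mixed one, had a TRA contig that was not productive or had no junction.

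A pair of TRA chains was more frequent in 2-TRB barcodes than in 1-TRB barcodes. Among barcodes with any TRA chain, 260 of 1103 (23.6%) 2-TRB barcodes had 2 TRA chains, against 1327 of 18060 (7.35%) 1-TRB barcodes. By library the shares were 20.0% against 4.48% in dCLN WT, 22.3% against 6.38% in dCLN 5xFAD, 18.8% against 5.70% in sCLN WT and 20.7% against 8.0% in sCLN 5xFAD. They were 20.7% against 6.40% in iLN WT, 24.9% against 8.70% in the CD4-titled library and 31.1% against 9.50% in the mixed library. In iLN 5xFAD 1 of 43 barcodes had 2 TRA chains, 2.33% against 3.21%, and this was the one library in which the share was not higher.

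Among barcodes with a TRA chain the mean difference within libraries was 13.5 points ± 6.45 (SD, n = 8 libraries), with a higher share in 7 of 8 (exact two-sided sign-flip permutation test, p = 0.0156, adjusted p = 0.0312 over 4 tests). In the 6 main libraries alone it was 11.8 points, higher in 5 of 6, and did not pass (p = 0.0625 in the same exact test). Without the mixed library it was 12.4 points (p = 0.0312 in the exact test, not adjusted over the 4 tests). Counted over all barcodes, with or without a TRA chain, it was 15.5 points, a value that takes in the property of the tables given above and has no test. As the libraries may share animals, these p-values measure only the spread between libraries.

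A reference value was computed for 2 cells under 1 barcode. When the chains of 2 independent 1-TRB barcodes of a library are put together, and only combinations with 1 or 2 TRA chains are kept, 32.4% to 64.0% of combinations have 2 TRA chains, depending on the library. The 2-TRB barcodes lay below this value in 8 of 8 libraries and above that of 1-TRB barcodes in 7 of 8. In dCLN 5xFAD, for example, 22.3% of 2-TRB barcodes had 2 TRA chains, against 6.38% of 1-TRB barcodes and 46.3% of combinations. This is arithmetic on the 1-TRB barcodes and carries no test.

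**Figure D2:**
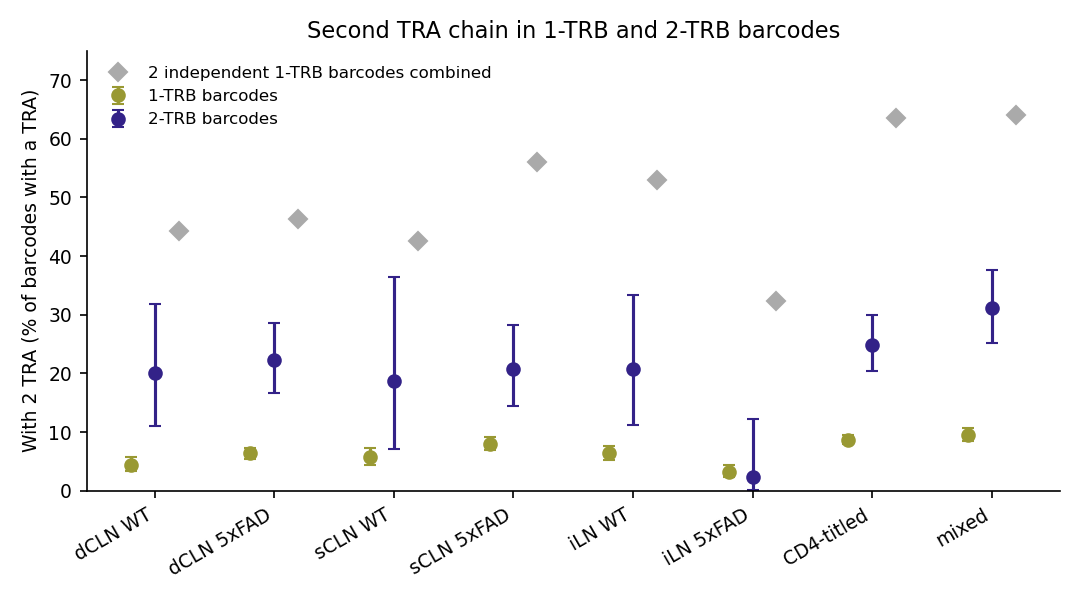
Share of barcodes with 2 TRA chains among those with any TRA chain (vertical axis, percent) for each library, with exact 95% counting intervals, in 1-TRB and 2-TRB barcodes; grey diamonds give the value computed for 2 independent 1-TRB barcodes put together. The 2-TRB points lie between the other 2 in all libraries but iLN 5xFAD, where 1 of 43 barcodes had 2 TRA chains.

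UMI counts of the 2 TRB chains were compared within the barcode and with 1-TRB barcodes. Over the libraries the median of the larger chain was 8 to 12 UMIs and that of the smaller chain 4 to 6.5, while the only chain of 1-TRB barcodes had 7 to 10. The larger chain was above the only chain by 0.22 ± 0.05 on the log2 scale (SD, n = 8 libraries, 8 of 8 higher) and the smaller one below it by 0.66 ± 0.11 (8 of 8 lower). With reads in place of UMIs these distances were larger, +0.51 and -1.31. A maximum and a minimum of 2 values differ from a single value by construction, so no test is given. For 2 independent 1-TRB barcodes put together the medians were 9 to 13 for the larger chain and 5 to 7 for the smaller. In 8 of 8 libraries the larger chain of the 2-TRB barcodes was below that computed value, and the smaller chain was below it in 3, equal in 4 and above in 1.

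The ratio of the smaller to the larger chain had a median of 0.556 in dCLN WT, the lowest, and 0.667 in iLN 5xFAD, the highest. In 723 of 1106 barcodes (65.4%) the chains were within 2-fold of each other, and in 94 they had equal UMIs. The smaller chain rested on 1 UMI in 18 barcodes (1.63%) and was under 0.2 of the larger in 31 (2.80%). The ratio computed for combined 1-TRB barcodes was 0.533 to 0.571, and the measured median was above it in 8 of 8 libraries. The barcode with the most UMIs in its smaller chain, from sCLN 5xFAD, is shown. Its chains used the same V gene and differed in junction.
sCLN 5xFAD, TRBV13-1 with TRBJ2-7, 32 UMIs: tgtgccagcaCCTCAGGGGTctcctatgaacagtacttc
sCLN 5xFAD, TRBV13-1 with TRBJ2-3, 30 UMIs: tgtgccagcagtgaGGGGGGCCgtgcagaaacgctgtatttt

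This barcode also had 2 TRA chains, with 15 and 12 UMIs. Its total of 89 UMIs was the highest among the 2-TRB barcodes of sCLN 5xFAD. The 95th percentile of 1-TRB barcodes with a TRA chain in that library was 35.75. The capitals again mark the bases between V and J.

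A pair of TRA chains in a 1-TRB barcode gives a scale for the TRB pairs. The smaller chain took 37.3% of the pair's UMIs in TRB pairs and 39.7% in TRA pairs, as means of library medians. The difference was -2.48 points ± 1.53 (SD, n = 8 libraries), lower in 7 of 8 (exact two-sided sign-flip permutation test, p = 0.0156, adjusted p = 0.0312 over 4 tests). In the 6 main libraries alone it was -2.28 points, with p = 0.0625 by the same exact test, and with reads in place of UMIs -3.85 points, with p = 0.0938.

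Total UMIs, which include the added chain, were also higher. At 1 TRA chain the median total was 19 to 26 UMIs in 2-TRB barcodes and 11 to 16 in 1-TRB barcodes, and the ranges did not overlap. At 2 TRA chains it was 22 to 32 against 14 to 23. The total computed for combined 1-TRB barcodes was 22 to 31 over the libraries, and the measured total of all 2-TRB barcodes, 20 to 28, was below it in 8 of 8. Of the 1106 barcodes, 245 (22.2%) exceeded the 95th percentile of 1-TRB barcodes with a TRA chain in their library, and 111 (10.0%) were below the median of those.

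The UMIs of the TRA chain, which the choice of barcodes did not use, were compared next. In barcodes with exactly 1 TRA chain its median was 5 UMIs in 1-TRB and 6 in 2-TRB barcodes in dCLN WT, sCLN WT and iLN WT, and 4 and 5 in the mixed library. It was 6 in both kinds of barcode in the 3 5xFAD nodes and 4 in both in the CD4-titled library. The mean difference was 0.14 ± 0.15 on the log2 scale (SD, n = 8 libraries), higher in 4 and equal in 4, and did not pass the threshold (exact two-sided sign-flip permutation test, p = 0.125, adjusted p = 0.125 over 4 tests). Medians of whole UMIs are coarse: with the mean of log2 UMIs per library the difference was 0.13 (p = 0.0156 in the same exact test), and with reads it was 0.75 (p = 0.0078, the smallest it can give). The call on TRA abundance thus depends on the measure.

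**Figure D3:**
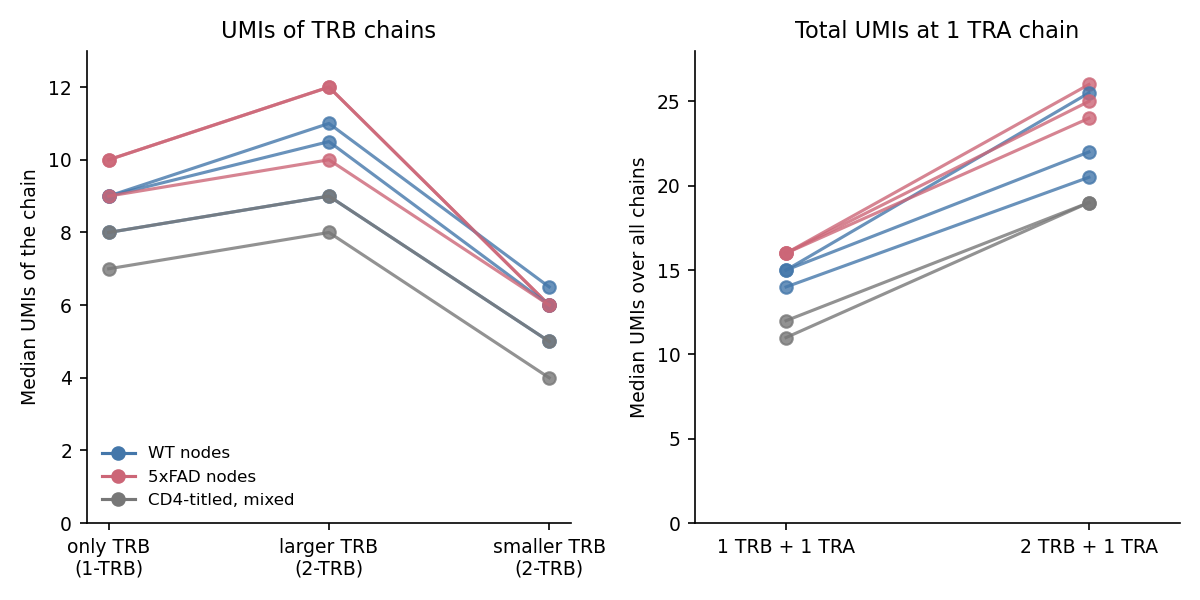
Left, median UMIs of the only TRB chain of 1-TRB barcodes and of the larger and smaller TRB chain of 2-TRB barcodes; right, median UMIs over all chains at 1 TRA chain, with 1 line per library. In every library the smaller chain lies below the only chain of 1-TRB barcodes, and the total at 1 TRA chain is 19 to 26 UMIs against 11 to 16.

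Junctions of the pairs were unlike each other. Of the 1106 pairs 215 had junctions of equal length, and these differed at 6 bases or more, with a median of 20. Pairs with 2 or fewer mismatches numbered 0, and 9 pairs shared both V and J gene. By library the mean junction length was 40.3 to 42.6 nucleotides in the larger chain, 40.4 to 42.7 in the smaller and 41.6 to 42.0 in 1-TRB barcodes with a TRA chain. Added bases averaged 3.47 to 4.48, 3.67 to 4.57 and 3.81 to 4.17 in the same order.

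TRBV and TRBJ genes are the V and J segments that encode most of the variable domain of the beta chain. Their use was compared between the chains of the 2-TRB and 1-TRB barcodes of the same libraries. TRBV2 was used less in 2-TRB barcodes, and TRBV15 and TRBJ1-6 more. These 3 were the genes called by edgeR's quasi-likelihood test at an adjusted p of 0.05 or less, which is 9.09% of the 33 genes tested (21 TRBV and 12 TRBJ). Another 4 had an unadjusted p under that level, and the median log2 fold change over all 33 was -0.02. All 3 genes lie in the TRB locus on chromosome 6 of GRCm38, TRBV2 at 41047340 to 41047995, TRBV15 at 41141188 to 41141658 and TRBJ1-6 at 41535554 to 41535606.

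TRBV2 took 1.39%, 1.19%, 1.00%, 2.41%, 2.83% and 0.375% of 1-TRB chains in dCLN WT, dCLN 5xFAD, sCLN WT, sCLN 5xFAD, iLN WT and iLN 5xFAD, and 7.44% and 5.04% in the CD4-titled and mixed libraries. In 2-TRB barcodes the same libraries had 2.31%, 0.248%, 0%, 1.03%, 0%, 0%, 3.43% and 3.10% of chains, lower in 7 of 8, with dCLN WT the exception. The counts of 0 in sCLN WT, iLN WT and iLN 5xFAD allow shares of up to 4.69%, 2.59% and 3.49% (3 counts). The fitted log2 fold change was -1.04 (SE 0.22, edgeR adjusted p = 0.00019), from 44 chains against 907. In the 6 main libraries alone it was -1.34, with an edgeR adjusted p of 0.115, and without the library term -0.64, with 0.62.

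TRBV15 took 1.89% ± 0.29 (SD, n = 8 libraries) of chains in 1-TRB barcodes and 3.33% ± 0.73 in 2-TRB barcodes, and it was higher in 8 of 8. The log2 fold change was 0.89 (SE 0.20, edgeR adjusted p = 0.00035), from 77 chains in 2-TRB barcodes. By library the 2-TRB share ran from 2.33% in iLN 5xFAD to 4.62% in dCLN WT, and the 1-TRB share from 1.39% in sCLN 5xFAD to 2.32% in sCLN WT. Compared over all libraries, the lowest 2-TRB share was thus just above the highest 1-TRB share. That lowest share rested on 2 chains, and those in sCLN WT and iLN WT on 2 and 3. In the 6 main libraries alone the log2 fold change was 0.96, with an edgeR adjusted p of 0.0684.

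TRBJ1-6 took 3.12% ± 0.47 (SD, n = 8 libraries) of 1-TRB chains and 5.13% ± 2.17 of 2-TRB chains, higher in 7 of 8 and lower in dCLN 5xFAD. Its log2 fold change was 0.50 (SE 0.17, edgeR adjusted p = 0.0479). The call was lost under 12 of 16 alternatives, with edgeR or DESeq2 adjusted p between 0.00077 and 0.306 over all of them. Leaving out dCLN WT, sCLN WT, sCLN 5xFAD, iLN 5xFAD, the CD4-titled or the mixed library each ended the call, with edgeR adjusted p of 0.0703 to 0.162. With only the 6 main libraries edgeR called 0 of the 33 genes, with 7 at an unadjusted p under 0.05.

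Among the genes that were not called, TRBV17 reached a log2 change of 0.61 (adjusted p = 0.076 by edgeR), TRBV26 0.39, TRBJ1-2 0.31, TRBV5 0.20 and TRBJ1-3 0.16. On the other side were TRBV1 at -0.27, TRBV12-2 at -0.24, TRBJ1-4 at -0.18, TRBV3 at -0.14 and TRBJ2-1 at -0.08. TRBJ1-2 was higher in 8 of 8 libraries, 5.48% ± 0.97 (SD, n = 8) against 7.06% ± 1.25. Leaving out sCLN WT brought TRBV17 to 0.69 with an edgeR adjusted p of 0.0255.

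**Figure D4:**
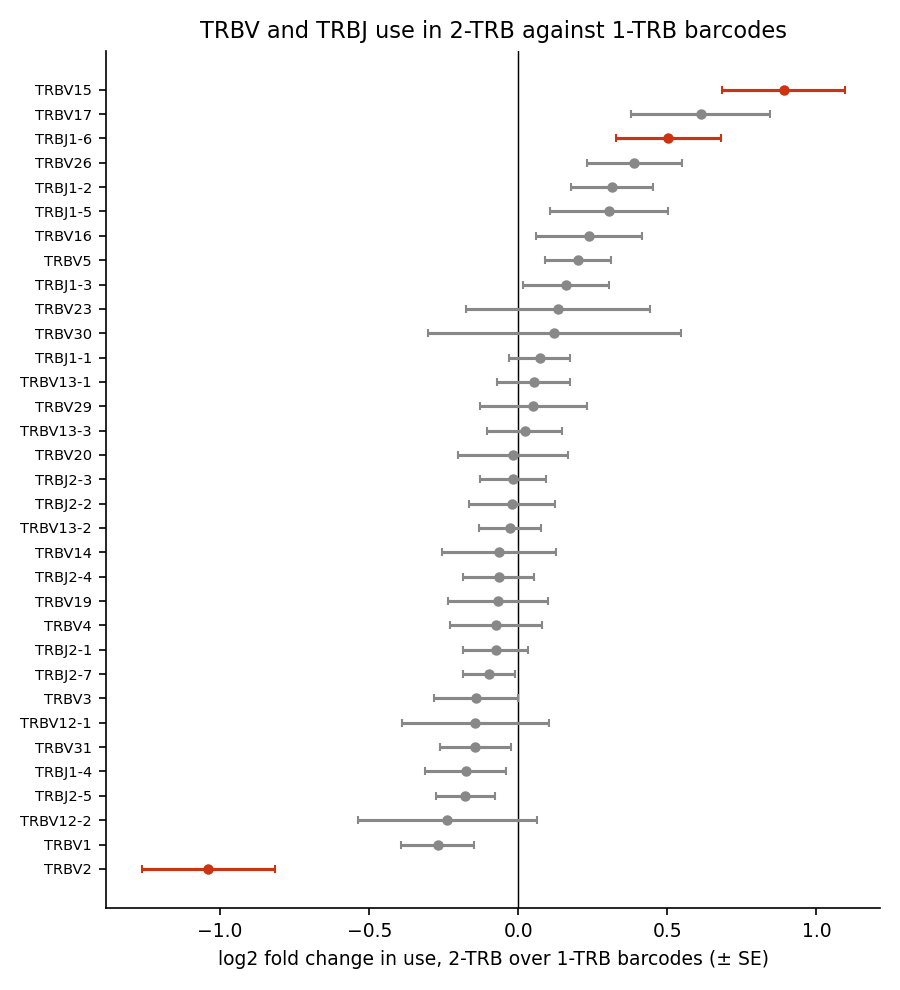
log2 fold change in use of each of 33 TRBV and TRBJ genes in 2-TRB over 1-TRB barcodes (horizontal axis, with SE), sorted, with the 3 genes past an edgeR adjusted p of 0.05 in red. TRBV2 stands alone at -1.04 and TRBV15 is at the other end at 0.89.

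V genes differed in UMIs per chain, and this moved with their place in the pair. In 1-TRB barcodes with a TRA chain, TRBV2 chains had 0.485 ± 0.057 (SD, n = 8 libraries) of the library's mean UMIs, the lowest of 21 V genes. TRBV17 and TRBV15 had 1.74 ± 0.24 and 1.59 ± 0.13 times that mean, the highest. Over the 943 pairs of different V gene and unequal UMIs, TRBV17 was the larger chain in 40 of 50 (80.0%), TRBV23, with relative UMIs of 0.972, in 13 of 19 (68.4%), TRBV15 in 42 of 64 (65.6%) and TRBV1 in 90 of 139 (64.7%). TRBV2 was the larger chain in 8 of 36 (22.2%), TRBV12-1 in 10 of 37 (27.0%) and TRBV19 in 34 of 95 (35.8%).

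Across the 21 V genes, which share their libraries and are not replicates, the relative UMIs in 1-TRB barcodes and the share of pairs in which the gene was larger had Pearson's r of 0.84 and Spearman's rho of 0.84. For relative UMIs and the log2 fold change in use the values were 0.69 and 0.29, and 0.40 and 0.04 over the 19 genes without TRBV2 and TRBV15. The part of UMIs per chain in the use of TRBV2 and TRBV15 was not tested.

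The V genes of a pair were combined widely. Of 231 possible pairings of the 21 V genes 197 were seen, 42 of them in 1 barcode. The most frequent was TRBV31 with TRBV5, in 31 barcodes over 7 libraries, where the product of their 1-TRB shares gives 17.5. TRBV31 lies downstream of the TRB constant genes in opposite orientation, whereas TRBV5 is in the upstream array. Next came TRBV13-2 with TRBV5 in 24 barcodes (product 22.4), TRBV13-1 with TRBV13-2 in 23 (19.0) and TRBV13-1 with TRBV5 in 21 (14.9). TRBV1 with TRBV5 and TRBV13-2 with TRBV13-3 had 19 each (17.5 and 18.1), and TRBV1 with TRBV13-2 and TRBV13-2 with TRBV3 had 18 each (22.0 and 16.3), as had TRBV13-3 with TRBV5 (14.2). Without that last, tied pairing, these 8 pairings took in 173 barcodes (15.6%).

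Both chains used the same V gene in 72 barcodes, 6.51% (exact 95% interval 5.13 to 8.13), where the shares of single chains give 6.99%. By library this share ran from 3.08% in dCLN WT (2 of 65) to 13.8% in iLN WT (8 of 58). The TRBJ genes lie in 2 clusters, each downstream of its own D segment. Both chains used the TRBJ1 cluster in 166 barcodes (15.0%, product 12.5%), 1 of each cluster was used in 529 (47.8%, product 45.5%) and both used TRBJ2 in 411 (37.2%, product 42.1%).

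A stretch of 9 TRBV genes, from TRBV12-1 to TRBV17, is absent from the TRB locus of some laboratory strains such as SJL. Both chains came from this stretch in 209 barcodes (18.9%, product 16.1%), 1 of them in 528 (47.7%, product 47.8%) and neither in 369 (33.4%, product 36.1%). The products use the shares of 1-TRB chains within each library, and these pairings are descriptions with no test.

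The repeat table lists the barcodes of the CD4-titled library again, with 87917 UMIs in all against 87415. As the barcodes are the same, a high agreement was set beforehand and the origin of the pairs cannot be told from it. Of its 335 2-TRB barcodes 312 had the same TRB pair there (93.1%, exact 95% interval 89.9 to 95.6), 16 had 1 of the chains and 7 were absent. For 1-TRB barcodes 6165 of 6293 (98.0%) had the same chain. Where 1 chain was left it was the larger one in 14 of 16, and the lost chain had a median of 3 UMIs (1 to 11). In turn 16 barcodes had 2 TRB chains there and 1 here. Both UMI counts were identical in 151 of the 312 pairs, and of 281 pairs with unequal UMIs 273 kept their order or became equal.

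The V regions of TRA chains were compared with the reference genome as a readout that the choice of barcodes did not use. In 1-TRB barcodes with 1 TRA chain, the V region matched a GRCm38 V transcript exactly in 54.8% to 55.1% of chains in the 3 WT nodes, in 12.7% to 15.1% in the 3 5xFAD nodes, in 35.4% in the CD4-titled library and in 95% in the mixed library. By TRA chains the CD4-titled library, labelled WT, thus lay between the WT and the 5xFAD nodes, but by TRB chains it did not. Both TRB V regions matched in 334 of its 335 2-TRB barcodes and in 226 of 226 in the mixed library. They did in 59 of 65, 26 of 32 and 49 of 58 in dCLN, sCLN and iLN of WT. In 5xFAD the same nodes had 179 of 202, 121 of 145 and 35 of 43. By TRA chains the mixed library lay above all 6 node libraries, and no mixture of those 6 shares reaches 95%. The labels give neither a strain nor the animals used, so whether its label is wrong cannot be told from this value. If the 2 TRA chains of a barcode were drawn independently, the share of pairs with 1 matching and 1 other chain would be 49.5% in the WT nodes, 22.2% to 25.6% in the 5xFAD nodes, 45.7% in the CD4-titled library and 9.5% in the mixed library.

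In the WT nodes the share of TRA pairs made of 1 matching and 1 other chain had different values in the 2 kinds of barcode. In 1-TRB barcodes 190 of 227 pairs were so split (83.7%, exact 95% interval 78.2 to 88.3), and in 2-TRB barcodes 14 of 31 (45.2%, 27.3 to 64.0). These intervals pool the barcodes of 3 libraries and do not overlap, whereas within each of the 3 nodes the intervals of the 2 kinds of barcode do overlap. By node the counts were 47 of 55 against 6 of 13 in dCLN, 52 of 64 against 2 of 6 in sCLN and 91 of 108 against 6 of 12 in iLN. Both chains matched in 8 of the 31 and neither in 9, against 27 and 10 of the 227.

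In the CD4-titled library the split pairs were 218 of 429 (50.8%, 46.0 to 55.6) in 1-TRB and 31 of 83 (37.3%, 27.0 to 48.7) in 2-TRB barcodes. In the 5xFAD nodes they were 104 of 398 (26.1%) and 18 of 76 (23.7%), and in the mixed library 22 of 273 (8.06%) and 8 of 70 (11.4%), with overlapping intervals. Barcodes are not replicates, so these counts carry no test.

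**Figure D5:**
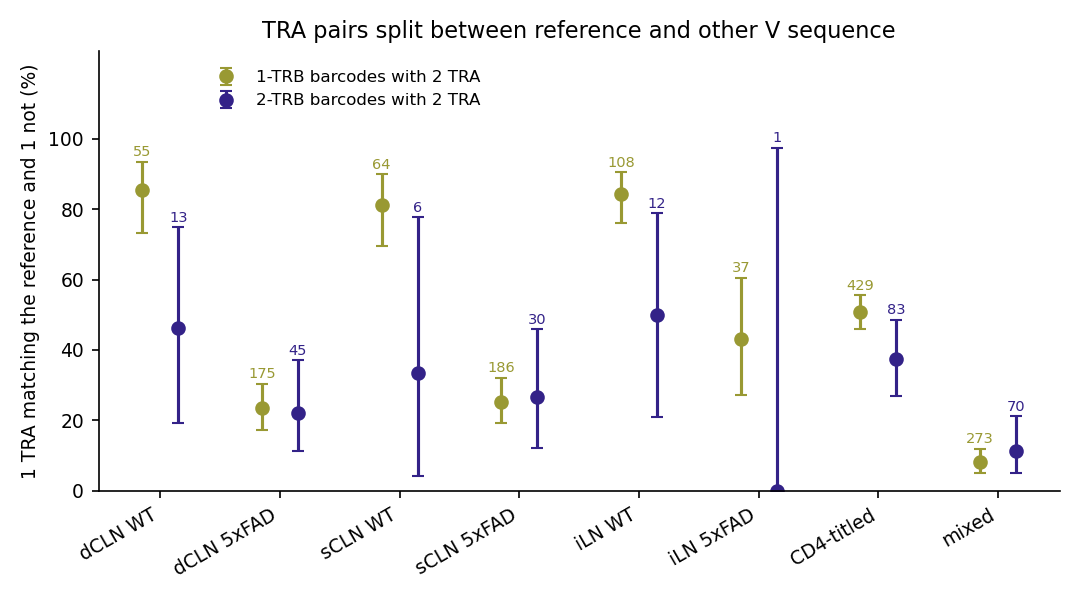
Share of barcodes with 2 TRA chains in which 1 V region matched GRCm38 exactly and 1 did not (vertical axis, percent), by library, with exact 95% counting intervals and the number of barcodes above each bar. In the 3 WT nodes the 1-TRB barcodes are at 81.3% to 85.5% and the 2-TRB barcodes at 33.3% to 50.0%.

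The remaining genotype comparisons did not separate. Among 2-TRB barcodes the share with 2 TRA chains was 19.8% ± 0.98 (SD, n = 3 nodes) in WT and 15.1% ± 11.1 in 5xFAD (exact sign-flip permutation test, p = 1, adjusted p = 1). That mean is set by iLN 5xFAD: without the inguinal nodes the difference was +2.11 points. The smaller chain took 37.0% ± 1.13 (SD, n = 3) of the pair's UMIs in WT and 37.7% ± 1.98 in 5xFAD (exact sign-flip permutation test, p = 0.75, adjusted p = 1).

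Chains of unconventional T cells were rare among these barcodes. The TRAV11 with TRAJ18 chain of invariant natural killer T cells was found in 20 of 26275 1-TRB barcodes (0.0761%, exact 95% interval 0.0465 to 0.118) and in 1 of 1106 2-TRB barcodes (0.0904%, 0.0023 to 0.503). The TRAV1 with TRAJ33 chain of mucosal-associated invariant T cells was found in 31 (0.118%, 0.0802 to 0.167) and 4 (0.362%, 0.0986 to 0.923). These shares count barcodes that could not show either chain, as 8215 of the 1-TRB and 3 of the 2-TRB barcodes had no TRA chain. With a TRA chain there were 18060 1-TRB and 1103 2-TRB barcodes, of which 1327 and 260 had 2. The intervals overlap for both chains, and the differences were not tested.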

How the data were processed

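Per the labels' protocols, lymph node cells were hashtagged, kept at above 87% viability and made into 10x Genomics TCR libraries. The submitters' processing notes list Cell Ranger 6.0.1, Seurat 4.1.0 and mm10 without giving their roles. Deposited values were UMI and read counts per contig, unnormalized, the V identity as a fraction, and lengths in nucleotides (other values), per the file headers.

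Productive contigs with a junction were kept, and barcodes sorted by number of TRB chains with different junctions. The members, lists and tests were chosen with earlier results of these data known. The combined 1-TRB barcodes, the ranks of V genes within pairs and their UMIs, the SJL stretch, the percentile of total UMIs and the restriction to barcodes with TRA were chosen after seeing these data. No doublet caller was run.

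Values per library were compared by exact two-sided sign-flip permutation tests over 8 libraries, adjusted by Benjamini-Hochberg over the 4 tests that neither the choice of barcodes nor the tables set (a family defined after seeing the results), and between genotypes over 3 nodes. Tests of presence and mean number of TRA chains and of larger, smaller, summed and total UMIs were run and are given no p, since the tables or the added chain set them. Gene use was fitted with edgeR 4.0.16 in R 4.3.3, with library as block and chain totals as offset, on genes with at least 20 chains. The block is the library itself, as both kinds of barcode come from it. Genes named were those past an adjusted p of 0.05 and the 10 largest changes with 20 chains or more in 2-TRB barcodes and 1 direction in at least 6 libraries. A gene's share is relative to the others. The fit was tested on simulated counts. Shares have Clopper-Pearson intervals. V regions and gene positions come from the GENCODE vM21 annotation of GRCm38.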

Additional observations from a re-analysis of the deposited data

Results flagged for a closer look

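Counted over all TRB barcodes, the difference in the share of 2-TRB barcodes between 5xFAD and WT had opposite signs in the nodes. It was +1.3 points in dCLN (95% counting interval 0.34 to 2.26) and +2.64 points in sCLN (1.75 to 3.53), and -0.57 points in iLN (-1.36 to 0.22). Counted over TRB barcodes with a TRA chain, the share in iLN was 3.60% in 5xFAD and 3.32% in WT. By that count, for which no interval was computed, 5xFAD was higher in every node, so the opposite sign depends on the barcodes counted. Each node has 1 library per genotype, and the difference between nodes was not tested.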

How the results depend on the processing

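Leaving aside what the tables or the choice of barcodes set, 253 of 287 values under alternatives were classed as kept, and 4 changed sign. Kept means the same direction and side of the threshold, and for the count of called genes also a move from 3 to 2. Some calls could not move, as the genotype tests cannot go below 0.25 and counting near-identical junctions as 1 changed no barcode. The share with 2 TRA chains among barcodes with TRA was classed by unadjusted p. Other tests within libraries were adjusted together with the tests set aside. The difference in the share with 2 TRA chains among barcodes with TRA was 11.8 points in the 6 main libraries, no longer called. With 1 library left out it was 12.4 to 15.6 points, with p of 0.0156 to 0.0312 in the exact sign-flip permutation test. Those p-values were not adjusted over the 4 tests, so no call is given for them. The count of called genes was 1 without the replicate block (4 at an unadjusted p under 0.05), 0 in the 6 main libraries and 2 to 3 with 1 library left out. TRA UMIs at any TRA chain, 0.28 (log2), were 0.22 in the 6 main libraries and 0.23 to 0.32 with 1 library left out, 6 of these 8 losing the call (all but iLN WT and iLN 5xFAD); at 1 TRA chain they were 0.75 with reads and 0.13 with mean log2 UMIs, both now called. The smaller-chain share of TRB against TRA pairs was -2.28 points in the 6 main libraries and -3.85 with reads, neither called. By genotype the smaller-chain share changed sign with reads (-2.54 points), and without iLN it was -0.0043, in a range of -0.0043 to 1.43 with 1 node left out. The share with 2 TRA chains was 2.11 without iLN, in a range of -8.21 to 2.11. TRBV3 was 0.0018 without the block. The causes were not tested. Counting near-identical junctions as 1 changed no barcode. The number of 2-TRB barcodes, 32 to 335 per library, limits all values of the smaller libraries.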
